A study of Gasterosteus aculeatus with 242 samples.

Results

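The sex difference in brain expression was measured in juvenile threespine sticklebacks (Gasterosteus aculeatus) that had been reared by hand and then exposed to an open field with a simulated predator. The fish were chosen by their labels, Day 0 for hand-rearing and open-field for the exposure, which gave 60 of the 242 fish of the series. Of these, 59 were used, 27 males and 32 females from 8 families. A single male library held 2055 counts, under the minimum of 500000, and was left out.

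All fish were offspring of wild-caught fathers. Hand-reared fish had been taken from the father (Day 0), whereas father-reared fish had been left in his care (Day 10). At 6 to 8 months of age and before maturity, open-field fish were put singly in a pool for 10 minutes, after which a sculpin model was led through it, and their brains were taken 60 minutes after that mock attack. Baseline fish were full siblings taken from the home tank, with the brain removed within 30 minutes of the partner's. The open-field group therefore combines the pool, the model and the wait that followed, and the males and females compared here all share hand-rearing and that exposure. Values for comparison came from 3 further groups, namely hand-reared baseline fish (39 males, 25 females, from the same families), father-reared open-field fish (26 males, 35 females) and father-reared baseline fish (31 males, 26 females), the father-reared fish coming from other families. Sex was assigned by the submitters with a DNA marker.

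Sticklebacks have X and Y chromosomes, with XX females and XY males. The pair still exchanges material along a short stretch, and over much of its remaining length the Y has lost genes that the X keeps. Genes on such a stretch are carried by males in fewer copies than by females, and in sticklebacks expression is known to make up such a gap in copies only in part. Genes kept only on the Y are transcribed in males alone. This is background. The deposited table names genes by identifier only, with no chromosome, symbol or function, so none of the genes below was placed on a chromosome or given a role.

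RNA came from the left side of the brain in some fish and from the right in others, and was read by 3′ tag sequencing, in which a count stands for a transcript end. Library totals ran from 796280 to 1231685 counts in males (median 1038252) and from 719461 to 1311376 in females (median 1001693). A median of 13675 genes had a count in a male and 13474.5 in a female. The sexes were not spread evenly over the 3 plates read from the library names: plate 1 held 48.1% of males and 31.2% of females. Left sides made up 55.6% of male and 50% of female libraries. In family 30, however, all males were right sides and all females were left sides. All males of families 22 and 39 were left sides. Differences given per family below were not adjusted for plate or side, so that of family 30 joins sex and side. Families held from 2 to 4 males and from 2 to 6 females. Family, plate and brain side were terms of the reported edgeR fits, apart from plate or side where a single plate or side was fitted. Because whole brain sides were used, fewer cells of a type and less RNA per cell cannot be told apart in any difference below.

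More genes were called higher in females than in males in this group of fish. The median called difference lay further from 0 for the female-higher genes. Of 7025 genes tested, 320 were called, made up of 1.58% of all tested genes that were higher in males and 2.98% that were higher in females (edgeR quasi-likelihood test, Benjamini-Hochberg adjusted p under 0.05). The median log2 fold change, males over females, was 0.42 over the male-higher genes and -0.93 over the female-higher genes, against 0.0085 over all genes tested. A log2 fold change of -1 means that males had 0.5 times the level of females. The median standard error (SE) of a gene was 0.083, and for 93.5% of the tested genes the 95% interval of the sex difference stayed within 1.5-fold of no difference.

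The gene that differed most was ENSGACG00000006281. Its level, in counts per 1000000 counts (CPM) after scaling, ran from 92.7 to 222.1 in males with a median of 142.4, and from 0 to 12.03 in females with a median of 6.27. Every male lay far above every female, so each fish matched its sex label by this gene. The log2 fold change was 4.34 (SE 0.097, edgeR adjusted p = 3e-41), a 20.2-fold excess in males. Means were 142.01 ± 28.3 CPM in males (SD, n = 27) and 6.66 ± 2.83 CPM in females (SD, n = 32).

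ENSGACG00000012099 was the other male-higher gene with the smallest p. It ran from 129.1 to 269.6 CPM in males (median 206.8). In females it ran upward from 50.9 CPM (median 71.6), the second highest female reaching 102.5 CPM, and again no female reached the lowest male. Its log2 fold change was 1.37 (SE 0.050, edgeR adjusted p = 9.5e-31). Its mean was 204.8 ± 41.06 CPM in males (SD, n = 27) and 75.3 ± 15.3 CPM in females (SD, n = 32). ENSGACG00000006281 was at a much lower level in females but was not absent, with no count in only 1 of the 32.

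Both female-higher genes with the smallest p were abundant in either sex. ENSGACG00000006703 ran from 829 to 1230 CPM in males (median 999.9) and from 1563 to 2266 CPM in females (median 1874), with a log2 fold change of -0.87 (SE 0.028, edgeR adjusted p = 7.6e-33). ENSGACG00000007135 ran from 589 to 1140 CPM in males (median 849) and from 1219 to 2137 CPM in females (median 1640), with a log2 fold change of -1.001 (SE 0.033, edgeR adjusted p = 1.9e-32). The highest male lay below the lowest female in both genes, although for ENSGACG00000007135 the gap was only that between 1140 and 1219 CPM. Levels of different genes on this scale are per transcript end and were not divided by length.

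**Figure D1:**
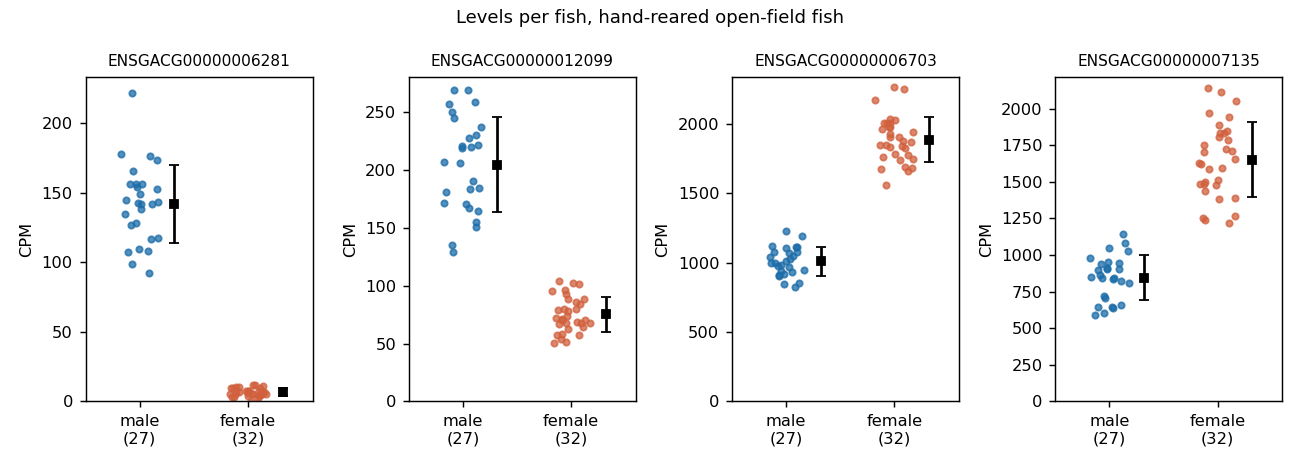
Level of the 4 named genes in each fish, in CPM (vertical axes, from 0), with males on the left and females on the right of each panel. Points are fish, and the square with bars beside them is the mean ± SD (n = 27 males and 32 females). Males and females do not overlap in any of the 4 genes, and females of ENSGACG00000006281 lie between 0 and 12.03 CPM.

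Families gave the same direction for all 4 genes, in differences not adjusted for plate or brain side. In ENSGACG00000006281 the difference between the male and the female mean, on log2(CPM + 1), ran from 4.10 to 4.61 over the 8 families, and in ENSGACG00000012099 from 1.24 to 1.52. In ENSGACG00000006703 it ran from -1.07 to -0.72 and in ENSGACG00000007135 from -1.18 to -0.69. Each gene thus kept its direction in 8 of 8 families (exact sign-flip permutation test over families, two-sided, p = 0.0078, the smallest that 8 families allow). The 4 genes were picked for their p in these same fish, so the family test describes how even the difference was and is not separate evidence for it.

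The sizes of the called differences were unlike in the 2 directions. Among female-higher genes, 53.1% lay between -1.1 and -0.9 on the log2 scale, 46 genes lay between -0.9 and -0.7, and 13 lay below -1.1. In all, 81.3% lay below -0.7, and 39 genes were spread thinly between -0.7 and 0. Male-higher genes had no such crowding: 3 genes lay between 0.9 and 1.1, the mirror range. Instead 32 lay below 0.3, 43 lay between 0.3 and 0.5, 23 between 0.5 and 1, and 13 above 1. The mean level did not set the directions apart, with a median over genes of 37.8 CPM for male-higher, 41.3 CPM for female-higher and 41.1 CPM for all tested genes.

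**Figure D2:**
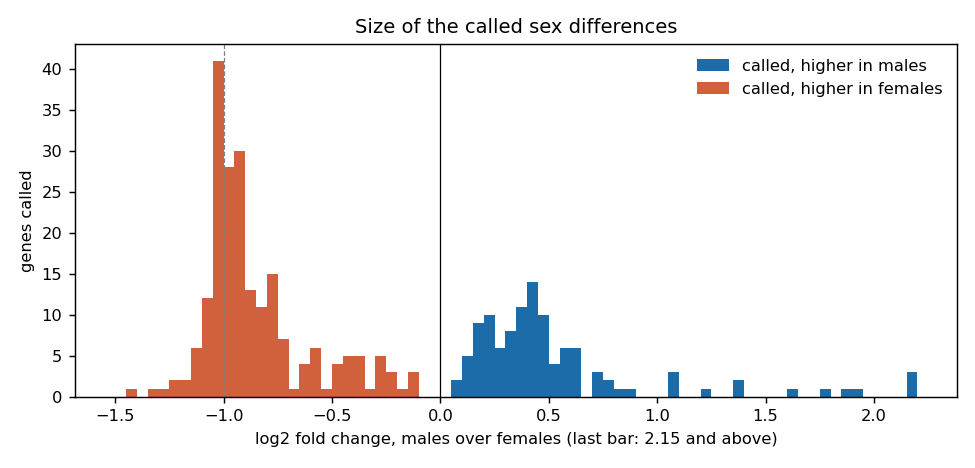
Number of called genes (vertical axis) by log2 fold change, males over females (horizontal axis, in steps of 0.05 on the log2 scale), for the genes called higher in males and in females, with the last bar holding larger values. Female-higher genes pile up beside the dashed line at -1, whereas most male-higher genes lie below 0.5.

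Single fish were separated by sex more fully in the female-higher genes than in the male-higher ones. For a female-higher gene, the median over genes was that a female lay above a male in 96.5% of pairs of fish, and for a male-higher gene that a male lay above a female in 74.9% of pairs. The sexes did not overlap at all in 5 of the male-higher and in 39 of the female-higher genes. No tested gene outside the called genes separated the sexes completely. The genes were called in these same fish, so the choice itself favours separation and these values are descriptions. The male-higher genes together held 2.27% of the counts in males and 1.95% in females, and the female-higher genes held 1.61% in males and 2.69% in females.

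Most called genes kept their direction in nearly every family. Of the male-higher genes, 54 (48.6%) kept their direction in all 8 families and 95.5% in 7 or more. Of the female-higher genes, 91.4% did so in all 8 families and 99% in 7 or more. No called gene kept it in fewer than 6 families. The weakest family for male-higher genes was family 22, with 2 males and 6 females, where 89 (80.2%) were higher in males. Family 32, also with 2 males and 6 females, kept 97.3% of them. In both families the males were on plates 1 and 2, whereas some of the females were on plate 3. Family differences were not adjusted for plate or brain side, and why family 22 kept fewer was not tested. The genes were selected in these same fish, so these counts describe evenness and are not a second test.

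Within single plates, which hold 6 to 13 males and 10 to 12 females, the same test called fewer genes. Family was a block in these fits too, so only families with both sexes on a plate or side inform the sex term. On plate 3 these were families 04, 11 and 40, so that contrast rests on fewer fish than its 6 males and 10 females. Plates 1, 2 and 3 gave 39, 44 and 13 genes higher in males. Genes called higher in females came to 2.48%, 2.41% and 1.12% of the 7025 genes in those plates. Right sides alone gave 31 genes higher in males and left sides alone 39, with 2.41% and 2.59% of the 7025 genes higher in females. Of the female-higher genes, all that could be tested kept their direction in each of these 5 fits except 1 gene in plate 3. Of the male-higher genes, all that could be tested kept it except 10 genes in plate 3. The plates and sides are parts of the fish these genes were chosen on. The kept directions therefore describe evenness and are not a second test.

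The remaining fish of the series gave classes of genes chosen without the fish described here, although the hand-reared baseline fish among them are siblings of these. A single fit of sex over the 96 males and 86 females outside the hand-reared open-field group called 562 of 8033 genes higher in males (7%) and 358 higher in females (4.46%). That order is the reverse of the one in the hand-reared open-field group, and why it differs was not tested. The calls of this fit were split by their log2 fold change in those fish into 7 classes. The classes were then read in the hand-reared open-field fish, as a description and with no test over a class.

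Genes near -1 elsewhere were near -1 here. The class from -1.1 to -0.9 held 130 genes, of which all but 13 were counted often enough to be tested here. Every gene tested was lower in males, all but 1 were called, and their median log2 fold change was -0.99, with a range from -1.32 to -0.72. The 95% interval of a gene held -1 in 93.2% of them, lay above it in 5 genes and below it in 3. The class beyond -1.1 held 13 genes, of which 9 were tested here, and all 9 were called, with a median of -0.99, which lies outside the range of their own class.

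Genes with a partial female excess kept an intermediate value. Of the 110 genes between -0.9 and -0.3 elsewhere, 89 were tested here, all were lower in males, and 71 were called. Their median was -0.71 with a range from -1.19 to -0.046. The 95% interval held -1 in 32 of them and lay wholly above it in 57. The genes between -0.3 and 0 elsewhere, of which all but 3 were tested here, had a median of -0.081, with 82 lower and 20 higher in males and 11 called.

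Genes higher in males elsewhere were spread over a wide range here. The class above 1 held 14 genes, of which 10 were tested here. All 10 were called, with log2 fold changes from 1.096 to 4.34 and a median of 1.81. Of the tested genes in the class from 0.3 to 1, all but 4 were higher in males and 52 (43%) were called, with a median of 0.36. The class from 0 to 0.3 held 356 genes, of which 354 were tested here, 324 were higher in males and 31 were called, with a median of 0.079. A further 71 genes of the class from 0.3 to 1 were too low in count for the filter and have no value here.

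**Figure D3:**
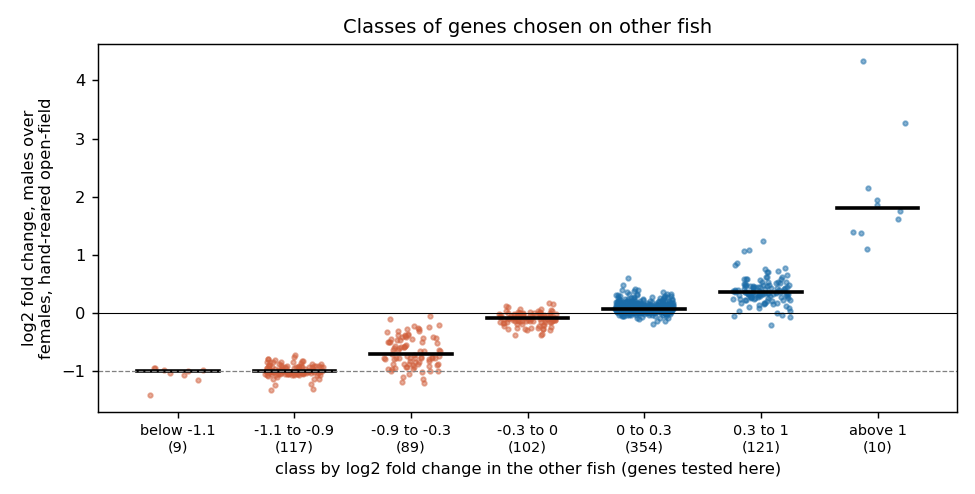
Log2 fold change, males over females, in hand-reared open-field fish (vertical axis) for genes grouped by their log2 fold change in all other fish (horizontal axis, with the number tested here in brackets). Points are genes and bars are medians, which are -0.99 for the classes below -1.1 and from -1.1 to -0.9, -0.71 for the class from -0.9 to -0.3, and 1.81 for the class above 1.

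The median of the class near -1 was close to -1 at every level of abundance. Split by mean level, the 39 least abundant genes (9.13 to 25.6 CPM) had a median log2 fold change of -0.99, the 39 in the middle (25.8 to 63.2 CPM) had -0.98, and the 39 most abundant had -1.003. The range narrowed from the low to the high group, from -1.32 to -0.72 at the bottom and from -1.13 to -0.84 at the top, as did the median SE, 0.12 against 0.055. Classes taken from father-reared fish only, which share no family with the fish described here, gave a median of -0.99 over the tested genes from -1.1 to -0.9, of which 98.2% were called.

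Summed over its genes, the class near -1 separated the sexes in every fish. Its tested genes together made up from 6308.5 to 7066.1 CPM in males (median 6741.3) and from 12857 to 13917 CPM in females (median 13483). The mean log2(CPM + 1) over these genes was 4.88 in the median male, with a range from 4.81 to 4.98, and 5.87 in the median female, with a range from 5.79 to 5.94. The distance between the sexes was far wider than the spread within either. The male minus female difference of a family ran from -1.002 to -0.93, with a mean of -0.97 ± 0.023 (SD, n = 8 families).

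The 10 genes above 1 were separated as fully. Their mean log2(CPM + 1) ran from 4.88 to 5.56 in males (median 5.27) and from 2.495 to 3.66 in females (median 3.26). Family differences had a mean of 2.06 ± 0.14 (SD, n = 8 families) and ran from 1.84 to 2.24. Nor did the sexes overlap in the class from -0.9 to -0.3, where the highest male lay at 4.87 and the lowest female at 5.29. In the class beyond -1.1 these values were 4.14 and 4.58.

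Levels of the genes from 0.3 to 1 overlapped widely between the sexes. The mean log2(CPM + 1) of the tested genes ran from 4.60 to 5.65 in males (median 4.91) and from 4.39 to 5.14 in females (median 4.60), and 23 of 27 males lay below the highest female. Family differences ran from 0.18 to 0.52, with a mean of 0.35 ± 0.13 (SD, n = 8 families), a wider spread than in the class near -1. Single fish were also more spread, with an SD of 0.21 in males and 0.19 in females, against 0.045 and 0.037 near -1. Whether families add to the spread of single fish was not tested. A single male of family 04 stood highest at 5.65, with the next male at 5.24. That male and the highest female were both on plate 3, and these levels were not adjusted for plate. Without that male the test called 1.37% of the 7025 genes higher in males and 2.92% higher in females, against 1.58% and 2.98% with it.

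**Figure D4:**
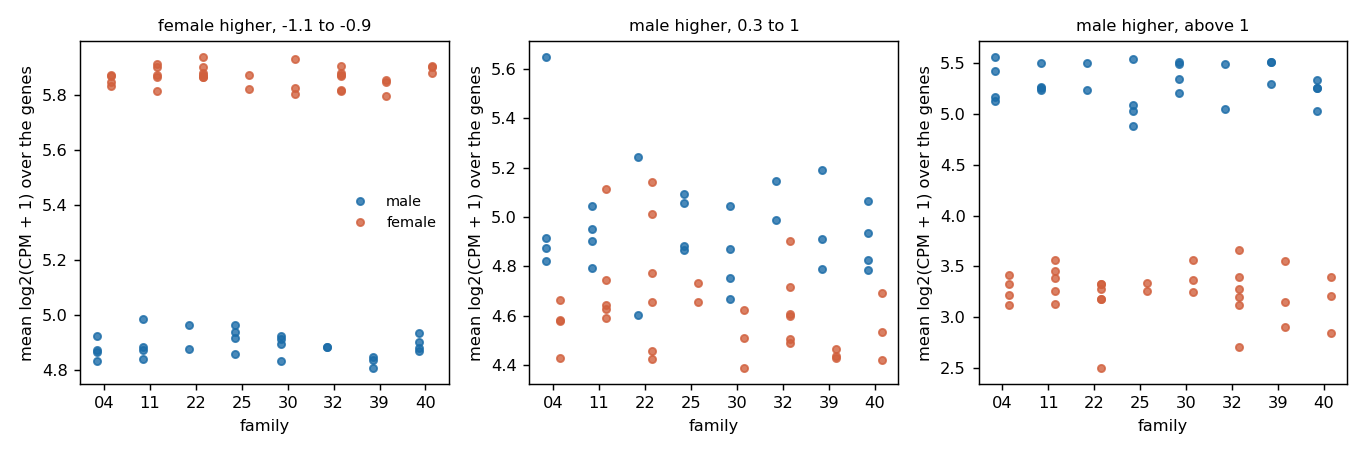
Mean log2(CPM + 1) over the genes of 3 classes (vertical axes, which do not start at 0 and differ between panels) for each fish, by family (horizontal axis), with males left of females in each family. In the class from -1.1 to -0.9 and in the class above 1 no male overlaps a female, whereas in the class from 0.3 to 1 they overlap and a single male of family 04 stands highest at 5.65.

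These differences were close in size in the separate plates and brain sides. For the class near -1 the male minus female difference in mean log2(CPM + 1) was -0.97 in plate 1, -0.98 in plate 2 and -0.96 in plate 3, and it was -0.99 in right and -0.97 in left sides. For the genes above 1 it was 2.02, 1.98 and 2.03 in the 3 plates. For the genes from 0.3 to 1 it was 0.36, 0.37 and 0.29, and females of plate 3, at a mean of 4.78, were higher than females of plate 1 at 4.54 and of plate 2 at 4.58. Males of plate 3, at a mean of 5.07, were also higher than males of plate 1 at 4.90 and of plate 2 at 4.95. What part plate has in the levels of that class was not tested further.

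The same test in the separate groups of fish gave similar counts in most. In hand-reared baseline fish 1.44% of 7200 genes were higher in males and 3.03% were higher in females. In father-reared open-field fish 1.52% of 7098 genes were higher in males and 3.2% were higher in females. In father-reared baseline fish 2.69% of 6908 genes were higher in males and 3.31% were higher in females. With no family block the male-higher share was 1.13% in father-reared baseline, 1.27% in hand-reared open-field, 1.28% in hand-reared baseline and 1.85% in father-reared open-field fish. It rose in the last of these and fell in the others.

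Nearly all genes of the female-higher list were also called in each of the other groups, as were from 43.2% to 63.1% of the male-higher list. The female-higher genes of hand-reared open-field fish that were also called at hand-reared baseline made up 94.7% of the first list and 90.8% of the second. With father-reared open-field fish the shared genes were 96.2% of the hand-reared and 88.5% of the father-reared list, and with father-reared baseline fish 93.3% and 85.2%. For the male-higher genes, 53 were shared with hand-reared baseline (47.7% of the open-field and 51% of the baseline list). Another 2 comparisons gave 48 shared with father-reared open-field fish (43.2% of the hand-reared and 44.4% of the father-reared list) and 70 shared with father-reared baseline fish (63.1% and 37.6%).

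The male-higher genes mostly kept their direction in the other groups, counting those that were also called there. Of the male-higher genes tested in the other group, all but 7 were also higher in males at hand-reared baseline, all but 4 after the open field in father-reared fish and all but 6 at father-reared baseline. Over all genes tested in both groups, the direction was shared by 57.3%, 60.7% and 60.8%. The median log2 fold change of the male-higher genes was 0.42 in the fish they were chosen on, against 0.28 in hand-reared baseline, 0.32 in father-reared open-field and 0.41 in father-reared baseline fish. That of the female-higher genes was -0.93, against -0.91, -0.92 and -0.92. Values in the fish a gene was chosen on are drawn away from 0 by the choice.

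Genes called in every group had a median difference further from 0 than genes called here alone. A larger difference is more readily called, so sorting genes by their calls itself favours this order. Of the male-higher genes, 36 were called in all 3 other groups, with a median log2 fold change here of 0.66, and 34 in none, with a median of 0.35. Of the female-higher genes, 90% were called in all 3 others, with a median of -0.94, and 3 in none, with a median of -0.19. Over all genes tested in both groups, the Pearson correlation of log2 fold changes across genes was 0.779 with hand-reared baseline, 0.793 with father-reared open-field and 0.769 with father-reared baseline fish. These are descriptions across genes, which are not independent replicates. The fish differ between groups, and the hand-reared baseline fish come from the same families.

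**Figure D5:**
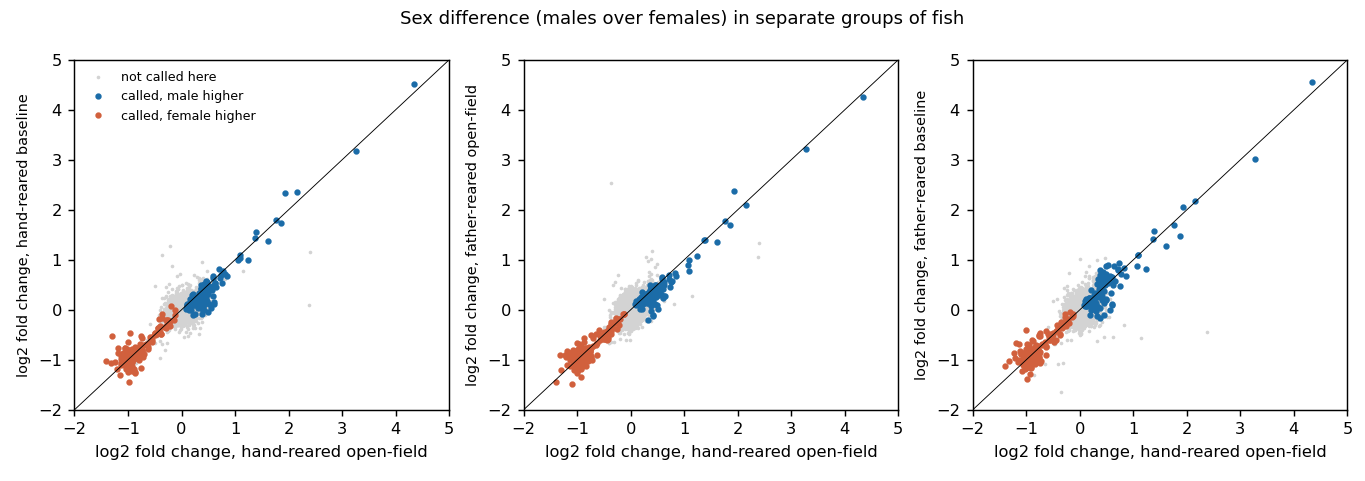
Log2 fold change, males over females, in hand-reared open-field fish (horizontal axes) and in the 3 other groups (vertical axes), with 1 point for each gene tested in both and the line of equality. Genes called here are coloured. The female-higher genes have a median of -0.93 here and medians from -0.92 to -0.91 in the other groups, with 39 of them between -0.7 and 0 here, and the strongest male-higher gene, ENSGACG00000006281, lies at 4.34 here and at 4.52, 4.25 and 4.56 in the other groups.

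The 4 named genes had close values in every group. ENSGACG00000006281 had a log2 fold change of 4.34 (SE 0.097) in hand-reared open-field fish, against 4.52 (SE 0.096) in hand-reared baseline, 4.25 (SE 0.099) in father-reared open-field and 4.56 (SE 0.13) in father-reared baseline fish. ENSGACG00000012099 had 1.37, against 1.43, 1.39 and 1.41 in those groups. ENSGACG00000006703 had -0.87, against -0.88, -0.83 and -0.79. ENSGACG00000007135 had -1.001 (SE 0.033) in hand-reared open-field fish, against -0.88 (SE 0.034) in hand-reared baseline fish, -0.98 in father-reared open-field and -0.95 in father-reared baseline fish.

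Whether the sex difference depended on exposure was tested as the difference itself, in hand-reared fish of both exposures. The sex-by-exposure term called 0 of 7747 genes (0%) by edgeR's quasi-likelihood test, with 332 genes whose p before adjustment was under 0.05, and 0 by DESeq2. For 86.5% of the male-higher and 90.9% of the female-higher genes, the 95% interval of the change in sex difference stayed within 1.5-fold, against 91.6% of all 7025 genes. The p before adjustment was under 0.05 in 13.5% of the male-higher and 6.7% of the female-higher genes, against 4.17% of all 7025. These lists, and the genes given next, were called in the open-field fish, which form an arm of the term. The choice therefore draws the term toward the called direction. In ENSGACG00000007135 the term, open-field minus baseline, was -0.11 log2 units (SE 0.046, 95% interval -0.20 to -0.016, edgeR adjusted p = 1). In ENSGACG00000006281 the term was -0.16 (SE 0.16, 95% interval -0.47 to 0.15, edgeR adjusted p = 1).

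Whether it depended on rearing was tested in open-field fish of both kinds. The sex-by-rearing term called 0 of 7714 genes (0%) by edgeR's quasi-likelihood test, with 280 whose p before adjustment was under 0.05, and 0 by DESeq2. The interval stayed within 1.5-fold for 81.1% of the male-higher and 88% of the female-higher genes, against 88.7% of all 7025 genes. The p before adjustment was under 0.05 in 9.01%, 3.35% and 3.52% of these sets. Here too the lists were called in an arm of the term, which draws it toward the called direction. Brain sides were compared within hand-reared open-field fish: the sex-by-hemisphere term called 0 of 7603 genes (0%) by edgeR's quasi-likelihood test, with 305 whose p before adjustment was under 0.05, and 0 by DESeq2. With 12 males and 16 females on the right and 15 males and 16 females on the left, that test was the least precise, and its interval stayed within 1.5-fold for 53.2% of the male-higher and 62.7% of the female-higher genes, against 62.6% of all 7025 genes.

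Genes that respond to the open field were called for sex at a share near that of all genes tested, so the count says nothing particular about them. A total of 27 of 7639 genes were called higher in open-field than in baseline fish among father-reared fish (0.353%), of which 25 were tested in the hand-reared open-field group. Their median log2 fold change, males over females, was 0.019, with 15 higher and 10 lower in males, and a range from -0.26 to 0.25. By edgeR's quasi-likelihood test 0 were called higher in males and 1 was called higher in females, against 1.58% and 2.98% of all 7025 genes tested. An unadjusted p under 0.05 was found in 1 of the 25 and in 805 of the 7025. DESeq2 and limma-voom also called 0 higher in males and 1 higher in females.

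That gene was ENSGACG00000006701, named after its value was seen. It ran from 65.2 to 136.6 CPM in males (median 101.9) and from 92.97 to 163.2 CPM in females (median 125.3), with wide overlap. The log2 fold change was -0.26 (SE 0.053, edgeR adjusted p = 0.00022), and it was lower in males in 7 of 8 families. It was also called in each of the 3 other groups, at -0.28 and -0.32 in the hand-reared and father-reared baseline fish and at -0.38 after the open field in father-reared fish. The change in its sex difference with exposure was -0.017 (SE 0.072, edgeR adjusted p = 1).

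The responders with the smallest p for exposure in father-reared fish had no sex call. ENSGACG00000017076 ran from 63.5 to 155.6 CPM in males (median 113.9) and from 61.3 to 186.4 CPM in females (median 103.3), with a log2 fold change of 0.056 (SE 0.090, 95% interval -0.12 to 0.23, edgeR adjusted p = 0.92). ENSGACG00000010476 ran from 35.9 to 126.1 CPM in males (median 67.7) and from 41.3 to 134.7 CPM in females (median 67.8), with 0.14 (SE 0.099, 95% interval -0.055 to 0.33, edgeR adjusted p = 0.71). Males and females overlapped over nearly their whole range in both. Hand-reared baseline fish had lower levels of both genes in either sex, with medians of 47.8 CPM in males and 51.6 CPM in females for ENSGACG00000017076. For ENSGACG00000010476 the medians were 27.95 CPM in males and 26.07 CPM in females.

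Below the count filter, a few genes were counted in males and in no female. Of 13540 genes with a count in at least 50% of males, 3 had 0 counts in all 32 females. Of 13430 genes with a count in at least 50% of females, 0 had 0 counts in all males. All 3 genes were too low for the count filter, so they are given by counts, and they were picked after their values were seen.

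ENSGACG00000013612 had a count in 27 of 27 males, from 1 to 10 with a median of 4. A sum of 0 over all females allows a limit of 3 counts. Scaled to library totals, the measured level in males was 41.4-fold that limit. Among the other fish of the series it had a count in 90 of 96 males and in 0 of 86 females. ENSGACG00000014210 had a count in 24 of 27 males, with a sum of 58, and its level in males was 22.4-fold the limit in females. Among the other fish it had a count in 69 of 96 males and in 3 of 86 females. The remaining gene had a count in 17 of 27 males, with a sum of 36, and its level in males was 13.9-fold the limit in females. Among the other fish it had a count in 64 of 96 males and in 1 of 86 females. The limit covers counting error in females only, and the level in males was taken as measured.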

How the data were processed

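The authors deposited 1 table of whole-number counts, with a row for each Ensembl gene identifier and a column for each lane of each library, made with tools that the submitters' processing notes list as FastQC 0.11.8, STAR 2.2.3a and HTSeq 0.9.1. The genome build, annotation, strand setting and any duplicate removal are items not given in the sources used here, so counts of near-identical, overlapping or antisense genes are uncertain. None of 22456 identifiers matched the 52177 genes of the reference table, so genes appear by identifier only and lists of cell-type markers and pathways could not be used.

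The 6 lanes of a library were summed. None of the libraries was treated as a duplicate: chi-square per degree of freedom was at least 1.9 in 847 same-sex pairs and at most 1.1 between lanes of a library. Family was read from the leading number of a fish code and plate from the leading digit of a library name. Shared parents between families are not given and were not modelled. Fish are separate animals.

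Each sex difference was tested on the counts as deposited with edgeR 4.0.16 in R 4.3.3 (filterByExpr, minimum count 10, TMM scaling, quasi-likelihood F-test), with family as a block and hemisphere and plate as terms. Genes with a Benjamini-Hochberg adjusted p under 0.05 were called. The SE was computed as log2 fold change over the square root of F, and 95% intervals are normal ones from it. CPM values were scaled by TMM factors over all used fish, and class levels used log2(CPM + 1). The main fit was also run on simulated counts. These held no family, plate or brain-side effects, so that run cannot show how the fit handles such effects. Calls under an alternative are given as a percentage of the genes tested in the reported fit. Alternatives included DESeq2 1.42.0 and limma-voom 3.58.1.

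Named genes were those with the smallest p, at most 2 in each direction of a comparison. Others are said to be named after their values were seen. The fish, the classes and their ranges were chosen with earlier results of these data known.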

Additional observations from a re-analysis of the deposited data

How the results depend on the processing

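Of the alternative counts of called genes, all but 8 stayed within 1.5 times the reported count, and the 4 named genes kept their direction and call in all 24 alternatives. Calls are given here as a percentage of the genes tested in the reported fit. Genes higher in males came to 0.555% with left sides only, 0.441% with right sides only, 0.555% with plate 1 alone, 0.626% with plate 2 alone and 0.185% with plate 3 alone, against 1.58%, and genes higher in females to 1.12% with plate 3 alone, against 2.98%. These fits hold fewer fish, and on plate 3 only families 04, 11 and 40 held both sexes. Leaving out each family in turn gave 1.07% to 1.54% higher in males, the lowest without family 04, and 2.85% to 3.05% higher in females. Genes higher in males in father-reared baseline fish came to 1.13% with no family block, against 2.69%. The sex-by-rearing term called 1 gene with no hemisphere term. The cause of these last changes was not tested. Leaving out the highest male of family 04 was chosen after seeing the data. Keeping all libraries gave no separate value where a group had no shallow library. A single count was worth 0.763 to 1.39 CPM. The count filter left genes with few counts untested in the reported fits.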

Other observations

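No interaction was called in the reported fits, and the gene with the smallest p of each is given here as values. For sex by rearing it was ENSGACG00000011475, with a term of 4.85 (SE 1.14, edgeR adjusted p = 0.34) and a range of 1.26 to 5.34 over its alternatives. It is the gene called with no hemisphere term, at 5.27 (edgeR adjusted p = 0.04), and its adjusted p ran from 0.04 to 1 over the alternatives. Its level in hand-reared open-field fish ran from 0 to 463 CPM in males, with a median of 0.888, and from 0 to 6.92 CPM in females, with a median of 1.07. Males held most of the high values: the 3 highest were 463, 323 and 315 CPM, and the gene had no count in 11 of 27 males and in 9 of 32 females. All 3 of these were left sides, whereas right sides of males reached no more than 33.07 CPM. In father-reared open-field fish the gene ran from 0 to 303 CPM in males and from 0 to 1025 CPM in females, so high values occurred there in both sexes.

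For sex by exposure, ENSGACG00000020603 had a term of 0.29 (SE 0.081, edgeR adjusted p = 1). After the open field males had a mean of 45.8 ± 6.74 CPM and females of 41.01 ± 6.62 CPM (SD, n = 27 and 32). At baseline males had a mean of 43.1 ± 7.75 CPM and females of 46.6 ± 7.64 CPM (SD, n = 39 and 25). For sex by hemisphere, ENSGACG00000000234 had a term of -1.05, right minus left (SE 0.28, edgeR adjusted p = 1, and 0.63 to 1 over its alternatives). On the right males had a mean of 19.02 ± 8.30 CPM and females of 20.8 ± 8.29 CPM (SD, n = 12 and 16), and on the left males had 22.7 ± 9.97 CPM and females 15.05 ± 5.73 CPM (SD, n = 15 and 16). Levels overlapped widely between the 4 sets.

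Values per family were also screened for a family far from the rest. Of 11 sets of 8 family values, 0 held such a family, where chance gives about 1 in 20.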
